A study of Mus musculus with 14 samples.

Results

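The mRNAs of 10 proteins that carry out mitochondrial fatty acid oxidation were followed in intestinal regulatory T cells (Tregs) with and without the AP-1 transcription factor JunB. The members were taken by name (Cpt1a, Cpt2, Slc25a20, Acadvl, Acadl, Acadm, Hadha, Hadhb, Acaa2 and Etfdh), by a rule that uses no measured value. They were chosen with earlier results of these data known. All 10 were found among the 53801 genes counted in one mouse line and the 55487 genes counted in the other, and all 10 passed the filter on low counts in every comparison. RNA-seq had been performed on 14 libraries of sorted Tregs in 6 groups. Peyer's patch (PP) Tregs of male Foxp3YFPcre mice made up 2 libraries of JunB F/+ mice (HET) and 2 of JunB F/F mice (KO), sorted as CD4+Foxp3(YFP)+CD62L- cells without any treatment, generally at 8 to 12 weeks of age. The other line carried Foxp3ERT2cre and a Rosa26-tdTomato reporter, and all of its mice, the controls included, were given 3 oral doses of 8 mg of tamoxifen on days 0, 1 and 3, started at 10 to 12 weeks of age, and were collected on day 7. CD25- PP Tregs of this line (TCRb+CD4+Foxp3(EGFP)+tdTomato+CD25-) made up 2 libraries of JunB F/+ (iHET) and 2 of JunB F/F (iKO) mice, and colonic Tregs (TCRb+CD4+Foxp3(EGFP)+tdTomato+) 3 of iHET and 3 of iKO mice. Library 1 of each inducible group was from a male with the X-linked Foxp3ERT2cre allele on its X chromosome, and libraries 2 and 3 were from females labelled Foxp3ERT2cre+/+. Cre is driven by Foxp3 in both lines, so every HET and iHET Treg had also been exposed to Cre and had lost a copy of Junb where recombination took place. The methods of the study state that Foxp3YFPcre deleted Junb in the germline of some animals, which the breeding was set up to limit.

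Long-chain fatty acids cannot cross the inner mitochondrial membrane as CoA esters. Cpt1a couples them to carnitine at the outer membrane, which is the rate-limiting step, the carrier Slc25a20 exchanges the acylcarnitine for free carnitine, and Cpt2 restores the CoA ester in the matrix. Each turn of beta-oxidation then begins with an acyl-CoA dehydrogenase chosen by chain length (Acadvl for very long, Acadl for long and Acadm for medium chains), goes on through the trifunctional protein, whose alpha subunit Hadha holds the hydratase and dehydrogenase and whose beta subunit Hadhb holds the thiolase, and ends for shorter chains with the thiolase Acaa2. Electrons taken by the dehydrogenases pass through the flavoprotein ETF to its oxidoreductase Etfdh and on to the respiratory chain. Tregs are known for leaning on oxidative metabolism more than effector T cells do, and the comparisons ask whether the mRNAs of this route depend on JunB or on the organ.

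A pair of start regions is shown. The first was chosen because its 2 genes begin within it in GENCODE and encode the 2 subunits of a single complex. The second holds the motif that AP-1 factors such as JunB bind. Hadha and Hadhb lie head to head on chromosome 5, with their GENCODE start sites 86 bases apart, and the bases between the start sites are in capitals (GRCm38.p6, chr5:30155138-30155272, plus strand, RefSeq sequence). Acadvl (chr11:70015404-70015528, minus strand) is the only 1 of the 9 members with a promoter window whose window held the AP-1 motif TGANTCA, which is in capitals.
Hadha and Hadhb: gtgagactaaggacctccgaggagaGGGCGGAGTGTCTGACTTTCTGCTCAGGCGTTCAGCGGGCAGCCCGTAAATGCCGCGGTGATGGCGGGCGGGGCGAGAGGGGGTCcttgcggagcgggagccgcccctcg
Acadvl: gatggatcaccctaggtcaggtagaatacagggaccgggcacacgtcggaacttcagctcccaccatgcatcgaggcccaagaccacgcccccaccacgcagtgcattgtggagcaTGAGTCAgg
The windows ran from 250 bases before to 50 bases after the RefSeq start site, and those of Hadha and Hadhb shared 228 bases. The RefSeq start site of Hadha is 182 bases from that of GENCODE and lies outside the stretch shown. The start sites of the 2 annotations are 967 bases apart for Cpt1a and 733 for Etfdh. The AP-1 motif was searched on both strands and was present in 7.81% of all 32851 windows. In Acadvl it began 16 bases after the RefSeq start site and 1 base before that of GENCODE. The CRE motif TGACGTCA, found in 1.79% of all windows, the direct repeat of PPAR and RXR with a spacer of 1 base (0.0396%) and the ERR element TCAAGGTCA (0.423%) were in none of the 9 windows, while CCAAT (37.4% of all windows) was in those of Cpt1a and Etfdh and the E-box CANNTG (72.3%) in 5 of 9. These are matches of letters and not measurements of binding.

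Between 26274861 and 35508709 reads were counted per library. Levels are given as CPM, counts scaled to a common library size with TMM factors (trimmed mean of M-values), which were estimated for each mouse line on its own, so levels of the 2 lines are set side by side only as a description. Members had between 496 and 3409 counts per library, far above the floor of 3 counts (0.0896 to 0.111 CPM). The deletion was checked on Junb, which was at 4741 and 5316 CPM in PP HET and 605 and 559.6 CPM in PP KO libraries, at 5529.6 and 4169 CPM in CD25- PP iHET and 888 and 909 CPM in CD25- PP iKO libraries, and at 6843, 8444 and 7489.9 CPM in colonic iHET and 1008, 989.7 and 1025 CPM in colonic iKO libraries. Its log2 fold change was -3.11 ± 0.116 (SE, adjusted p = 4.74e-05) in PP, -2.44 ± 0.173 (SE, adjusted p = 0.0941) in CD25- PP and -2.91 ± 0.127 (SE, adjusted p = 0.0191) in colonic Tregs, and the groups did not overlap in any of these comparisons. Cd3e (783 to 1197 CPM), Cd4 (888 to 1183 CPM) and Foxp3 (59.5 to 155 CPM) were present in every library. Il2ra, which encodes CD25, was at 184 to 239 CPM in the CD25- PP and at 559 to 749 CPM in the colonic libraries. Transcripts of other cell types were present as well, with 22 markers of intestinal epithelium summing to between 70.9 and 2289 CPM, 12 of B and plasma cells to between 289 and 2474 CPM and 12 of myeloid cells to between 59.6 and 333 CPM. The most abundant of these were Krt19 (up to 662 CPM), Ighm (up to 2249 CPM) and Lyz2 (up to 125 CPM). In bulk RNA, fewer cells of a type and less RNA per cell cannot be told apart.

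**Figure D1:**
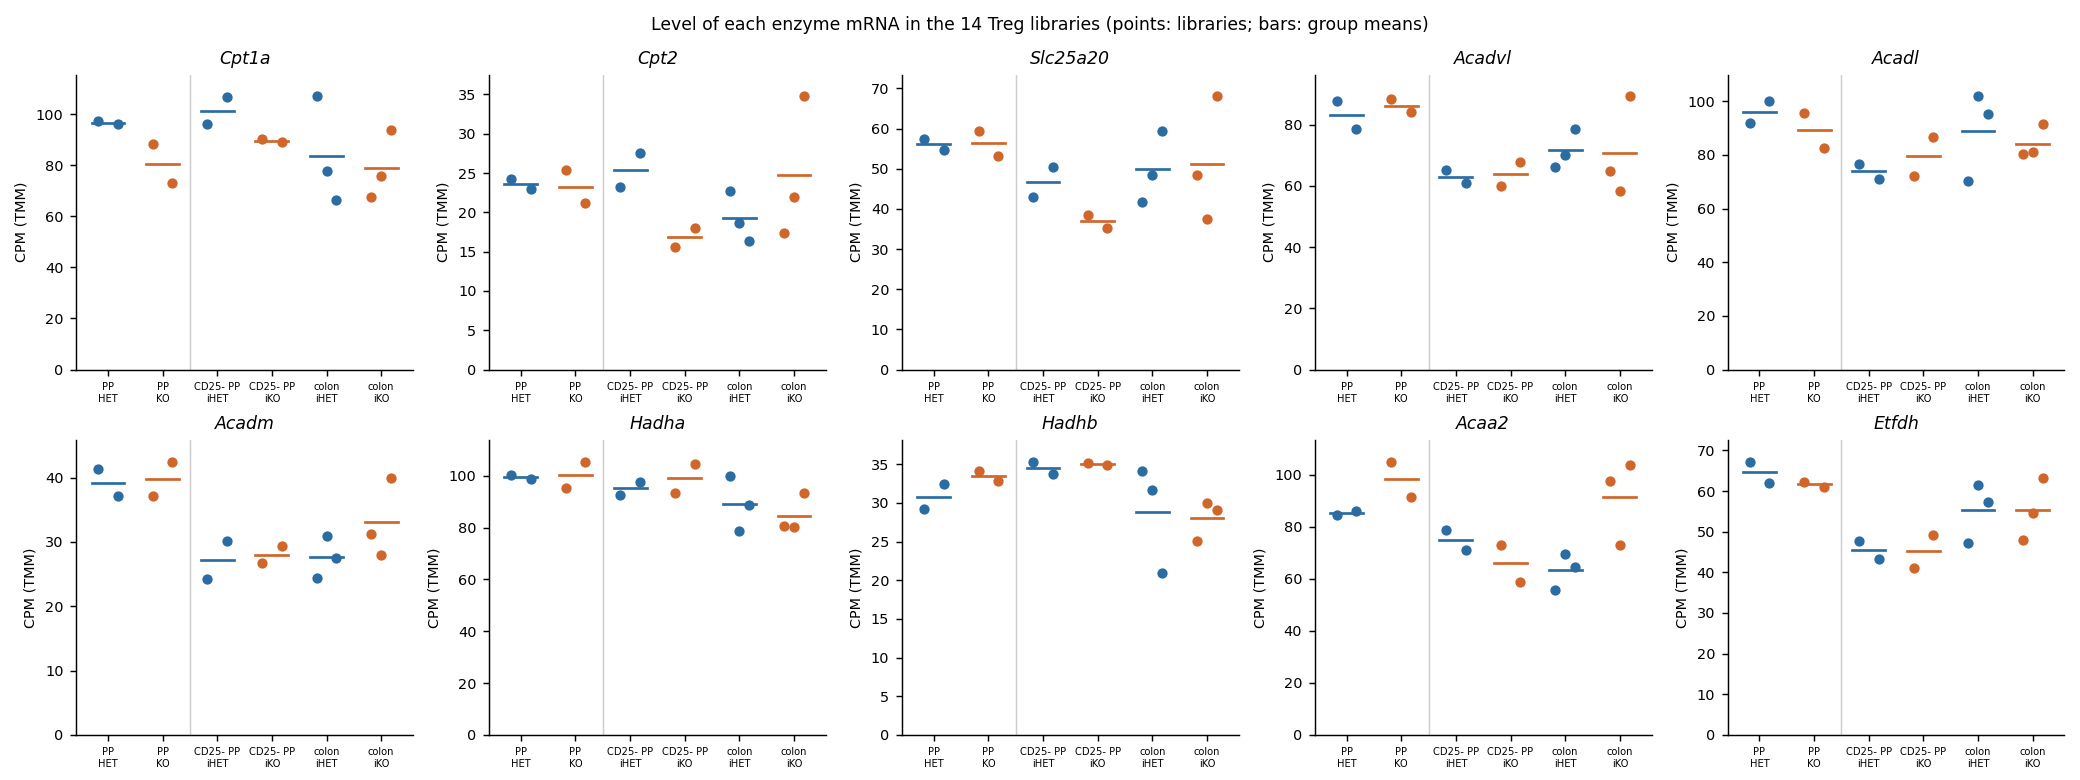
Level of each member in CPM (vertical axes, each starting at 0) in the 14 libraries, with a point per library, a bar at each group mean, blue for HET or iHET and orange for KO or iKO. Control and deleted libraries lie within the same range for most members, Cpt2 is apart in CD25- PP Tregs (23.2 and 27.6 against 15.6 and 18.0 CPM), and colonic iKO library 3 is the highest library of the inducible line for 6 members.

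To compare the members with each other, CPM were divided by the exon length of each gene in kb. The thiolase Acaa2 and the dehydrogenases Acadl and Acadvl held the first 3 places in each of the 6 groups. In PP HET Tregs their levels were 56.3 ± 0.697, 47.9 ± 2.78 and 30.98 ± 2.397 CPM per kb (SD, n = 2), and these 3 genes made up between 61.2 and 70.6% of the summed level per kb of the 10 members over the 14 libraries. Acadl stood above Acaa2 in colonic iHET Tregs, at 44.4 ± 8.26 against 41.7 ± 4.53 CPM per kb (SD, n = 3), where the libraries overlapped, and below it in the other groups. The libraries of Acaa2 and Acadl also overlapped in CD25- PP iKO Tregs and were apart in the remaining 4 groups, and Acadvl was apart from both in all 6.

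The 3 members of the carnitine shuttle, which feeds the route, were lower. Cpt1a was at 12.6 ± 0.118 CPM per kb in PP HET and 13.3 ± 0.997 CPM per kb in CD25- PP iHET Tregs, Slc25a20 at 11.6 ± 0.391 and 9.64 ± 1.101 CPM per kb, and Cpt2 at 9.86 ± 0.362 and 10.6 ± 1.28 CPM per kb. Together they gave between 14.3 and 21.0% of the summed level per kb. Hadhb was last in every group, at 4.67 ± 0.346 CPM per kb in PP HET and 4.38 ± 1.06 CPM per kb in colonic iHET Tregs, and its libraries did not overlap those of the member above it in any group. From the fourth to the ninth place the libraries of every pair of neighbours overlapped in both colonic groups, while in PP HET Tregs only Slc25a20 with Hadha and Acadm with Cpt2 did. Among all genes tested, the level per kb of Acaa2 was above that of between 92.8 and 95.6% of genes over the 6 groups, and that of Hadhb above between 41.8 and 58.6%. Exon length was the union over all annotated isoforms (8730 bases for Hadha and 6595 for Hadhb), which lowers the value on this scale of genes with long isoforms. It also holds bases shared with other genes, where reads were left out, among them 1151 of the 2686 of Acadvl. This lowers Acadvl on this scale as well, and its place below Acaa2 and Acadl may rest on it.

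**Figure D2:**
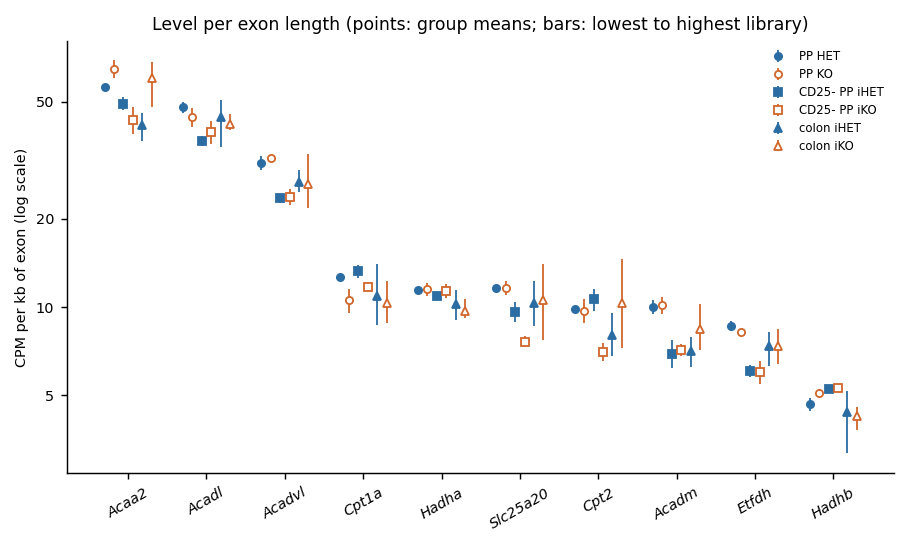
CPM per kb of exon (logarithmic vertical axis) of the 10 members in order of their mean, with a marker at the mean of each group and a bar from its lowest to its highest library. Acaa2, Acadl and Acadvl stand above the other 7 members in every group, and Hadhb is the lowest.

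The first question was whether these mRNAs change when JunB is lost. None of the 10 members passed an FDR of 0.05 in edgeR's quasi-likelihood test in PP, CD25- PP or colonic Tregs. Over all genes, 409 of 12224 (3.35%) passed in PP Tregs, 0 of 17079 (0%) in CD25- PP Tregs, where 618 had an unadjusted p under 0.05, and 1 of 16313 (0.00613%), Junb itself, in colonic Tregs. An unadjusted p under 0.05 was reached by 1 of the 10 members in each comparison, namely Cpt1a in PP, Cpt2 in CD25- PP and Acaa2 in colonic Tregs. Over all genes the shares were 14% in PP, 3.62% in CD25- PP and 3.85% in colonic Tregs. DESeq2 called 696 genes in PP, 35 in CD25- PP and 50 in colonic Tregs, edgeR's exact test 689 in PP and 43 in CD25- PP Tregs and its likelihood ratio test 25 in colonic Tregs, and 0 of the 10 members was among them each time. The median log2 fold change of the members was 0.0089 in PP, -0.0019 in CD25- PP and -0.013 in colonic Tregs, beside 0.0030, -0.0022 and 0.0047 for all genes tested.

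The intervals of the differences show how large a change these libraries still allow. In PP Tregs the 95% intervals of all 10 members lay within a 1.5-fold change in either direction, which held for 7200 of all 12224 genes. In CD25- PP Tregs 8 of 10 lay within 1.5-fold and 9 of 10 within 2-fold, beside 5690 and 10323 of all 17079 genes. In colonic Tregs 6 of 10 and 9 of 10 did, beside 6035 and 10788 of all 16313 genes. The interval that passed 2-fold belonged to Cpt2 in both. The libraries of control and deleted mice did not overlap for 3 of 10 members in PP Tregs, which was also the case for 43.6% of all genes, for 3 of 10 in CD25- PP Tregs (32.1% of all genes) and for 1 of 10 in colonic Tregs (8.35% of all genes).

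**Figure D3:**
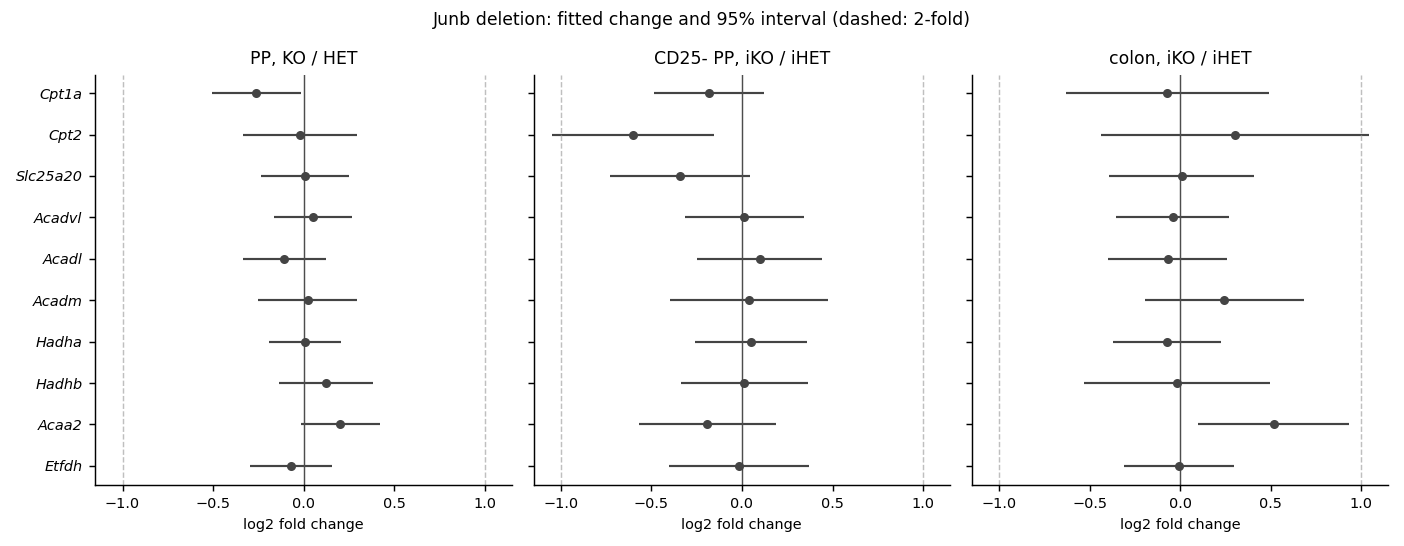
Fitted log2 fold change of KO against HET or iKO against iHET (horizontal axis) of each member, with its 95% interval, in PP, CD25- PP and colonic Tregs, and dashed lines at a 2-fold change. The intervals that leave out 0 are those of Cpt1a in PP (-0.51 to -0.016), Cpt2 in CD25- PP (-1.05 to -0.15) and Acaa2 in colonic Tregs (0.096 to 0.93), before adjustment over all genes.

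Among the genes of the carnitine shuttle, Cpt1a (ENSMUSG00000024900.5, chromosome 19 from 3322334 to 3385733, plus strand) was at 97.3 and 95.99 CPM in PP HET and at 88.3 and 72.8 CPM in PP KO libraries. Both KO libraries were below both HET libraries, with means of 96.6 ± 0.902 and 80.6 ± 10.96 CPM (SD, n = 2). The log2 fold change was -0.26 ± 0.107 (SE, adjusted p = 0.32004) and did not pass the FDR. In CD25- PP Tregs the order was the same, with 95.9 and 107 CPM in iHET and 90.3 and 88.96 CPM in iKO libraries and a log2 fold change of -0.18 ± 0.126 (SE, adjusted p = 0.999). In colonic Tregs the groups overlapped widely, with 107, 77.8 and 66.3 CPM in iHET and 67.6, 75.6 and 93.9 CPM in iKO libraries. There the log2 fold change was -0.072 ± 0.224 (SE, adjusted p = 0.989).

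Cpt2 (ENSMUSG00000028607.16, chromosome 4 from 107903981 to 107923610, minus strand) was nearly level in PP Tregs, at 24.2 and 22.96 CPM in the HET libraries against 25.4 and 21.1 CPM in the KO libraries, and had a log2 fold change of -0.019 with an interval of -0.33 to 0.30. The CD25- PP libraries were at 23.2 and 27.6 CPM in iHET and 15.6 and 18.01 CPM in iKO mice. These groups did not overlap, and their means were 25.4 ± 3.05 and 16.8 ± 1.68 CPM (SD, n = 2). This was the largest difference of any member by genotype, a log2 fold change of -0.60 ± 0.184 (SE, adjusted p = 0.999). By p it had rank 171 among the 17079 genes tested. Colonic Tregs showed the opposite order of means, with 22.8, 18.7 and 16.3 CPM in iHET and 17.3, 21.97 and 34.7 CPM in iKO libraries, where only library 3 of iKO was above all iHET libraries. The log2 fold change there was 0.30 ± 0.296 (SE, adjusted p = 0.954), and without iKO library 3 it was -0.078. As this fit has the replicate number as a block, leaving out iKO library 3 also takes iHET library 3 out of the contrast.

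Slc25a20 (ENSMUSG00000032602.6, chromosome 9 from 108662088 to 108684641, plus strand) was at 57.4 and 54.7 CPM in PP HET and 59.5 and 53.3 CPM in PP KO libraries, which overlapped, with a log2 fold change of 0.0082 and an interval of -0.24 to 0.25. In CD25- PP Tregs both iKO libraries, at 38.6 and 35.3 CPM, were below both iHET libraries, at 42.9 and 50.5 CPM. The log2 fold change was -0.34 ± 0.159 (SE, adjusted p = 0.999). In CD25- PP Tregs the libraries were apart, with iKO lower, for 3 of 10 members, Cpt1a, Cpt2 and Slc25a20. This share is close to the 32.1% of all genes that were apart. None of these 3 passed the FDR, and Slc25a20 and Cpt2 overlapped in PP and all 3 in colonic Tregs. The 22 epithelial markers were lower in CD25- PP iKO libraries too, summing to 891 and 463 CPM in these iHET and to 266 and 328 CPM in these iKO libraries, and their part in the result was not tested. In colonic Tregs Slc25a20 was at 41.7, 48.5 and 59.4 CPM in iHET and 48.4, 37.4 and 68.03 CPM in iKO libraries, a spread that spanned both groups, with a log2 fold change of 0.0079 ± 0.1596 (SE, adjusted p = 0.999).

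Of the acyl-CoA dehydrogenases, Acadvl (ENSMUSG00000018574.14, chromosome 11 from 70010183 to 70015411, minus strand) was at 87.8 and 78.7 CPM in PP HET and 88.3 and 84.2 CPM in PP KO libraries, at 65.2 and 60.8 CPM in CD25- PP iHET and 59.9 and 67.9 CPM in CD25- PP iKO libraries, and at 66.2, 70.1 and 78.5 CPM in colonic iHET and 64.8, 58.4 and 89.2 CPM in colonic iKO libraries. The groups overlapped in each comparison. Its log2 fold changes were 0.051, 0.014 and -0.042, with intervals of -0.16 to 0.27, -0.32 to 0.34 and -0.35 to 0.27. Of the 2686 exon bases of Acadvl, 1151 are also in exons of Dvl2 on the opposite strand. The counting ignored strand and by its defaults left out reads that overlap several genes, so reads there were largely counted for neither gene.

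Acadl (ENSMUSG00000026003.5, chromosome 1 from 66830839 to 66863277, minus strand), which takes long and branched chains, was at 92.1 and 99.953 CPM in PP HET and 95.8 and 82.6 CPM in PP KO libraries. It was at 76.6 and 71.2 CPM in CD25- PP iHET and 72.3 and 86.6 CPM in CD25- PP iKO libraries. The widest spread was among the colonic iHET libraries, at 70.4, 102 and 95.1 CPM, which enclosed the iKO libraries at 80.3, 80.96 and 91.4 CPM. The log2 fold changes of -0.11, 0.10 and -0.071 each had an interval that held 0, the widest from -0.25 to 0.44 in CD25- PP Tregs.

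Acadm (ENSMUSG00000062908.12, chromosome 3 from 153922357 to 153944632, minus strand), the medium-chain enzyme, was at 41.3 and 37.1 CPM in PP HET and 37.2 and 42.5 CPM in PP KO libraries and at 24.2 and 30.1 CPM in CD25- PP iHET and 26.7 and 29.3 CPM in CD25- PP iKO libraries, with log2 fold changes of 0.023 and 0.037. The colonic libraries were at 24.5, 30.9 and 27.6 CPM in iHET and 31.2, 27.9 and 39.997 CPM in iKO mice, of which iKO library 3 was the highest of the inducible line. Here the log2 fold change was 0.24 ± 0.175 (SE, adjusted p = 0.9498). It was 0.10 without that library, which by the block takes iHET library 3 out of the contrast too.

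By their GENCODE start sites, the genes of the trifunctional protein's subunits share the start region shown above. Hadha (ENSMUSG00000025745.12, chromosome 5 from 30118304 to 30155162, minus strand) was at 100.4 and 98.9 CPM in PP HET and 95.2 and 105 CPM in PP KO libraries, at 92.5 and 97.7 CPM in CD25- PP iHET and 93.5 and 105 CPM in CD25- PP iKO libraries, and at 100.005, 78.8 and 88.6 CPM in colonic iHET and 80.5, 80.2 and 93.2 CPM in colonic iKO libraries. Each pair of groups overlapped, and the log2 fold changes of 0.0095, 0.052 and -0.076 had standard errors of 0.08601, 0.128 and 0.119, the lowest or next to the lowest of the members in each comparison. Of its exon bases, 75 are shared with Garem2 on the opposite strand.

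Hadhb (ENSMUSG00000059447.13, chromosome 5 from 30155248 to 30184593, plus strand) was at 29.2 and 32.4 CPM in PP HET and 34.2 and 32.9 CPM in PP KO libraries, where the KO libraries were both higher and the log2 fold change was 0.12 ± 0.113 (SE, adjusted p = 0.751). Its CD25- PP libraries were the closest of all, at 35.3 and 33.8 CPM in iHET and 35.2 and 34.97 CPM in iKO mice, with a log2 fold change of 0.014 and an interval of -0.34 to 0.37. In colonic Tregs it was at 34.1, 31.7 and 20.9 CPM in iHET and 25.1, 30.02 and 29.1 CPM in iKO libraries, where iHET library 3 was the lowest library and the others of that group the highest. The log2 fold change there was -0.019 ± 0.205 (SE, adjusted p = 0.998). Hadha had between 2.49 and 4.24 times the counts of Hadhb over the 14 libraries, with a median of 2.96, and the highest ratio was in colonic iHET library 3. Per kb of exon the ratio was between 1.88 and 3.20.

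Acaa2 (ENSMUSG00000036880.10), the matrix thiolase, was the member with the highest level per kb in all groups but the colonic iHET Tregs. The PP HET libraries were at 84.6 and 86.1 CPM and both PP KO libraries were higher, at 105 and 91.4 CPM, with a log2 fold change of 0.20 ± 0.0942 (SE, adjusted p = 0.4002). In CD25- PP Tregs the groups overlapped, with 78.6 and 71.1 CPM in iHET and 73.04 and 58.7 CPM in iKO libraries and a log2 fold change of -0.19 ± 0.157 (SE, adjusted p = 0.999). All 3 colonic iKO libraries, at 97.5, 72.8 and 104 CPM, were above all 3 iHET libraries, at 55.8, 69.4 and 64.6 CPM, with means of 91.4 ± 16.3 and 63.3 ± 6.87 CPM (SD, n = 3). Since the groups did not overlap, the iKO library was necessarily the higher within each replicate number. The log2 fold change was 0.52 ± 0.167 (SE, adjusted p = 0.9498), so the difference did not pass the FDR over 16313 genes, and leaving out each library in turn gave values from 0.37 to 0.73. The second highest of these libraries, iKO library 1 at 97.5 CPM, had the lowest sum of epithelial markers of all colonic libraries (241 CPM), and the highest, iKO library 3 at 104 CPM, had the highest (2289 CPM).

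Etfdh (ENSMUSG00000027809.14, chromosome 3 from 79603788 to 79629500, minus strand), which passes electrons to ubiquinone, was at 67.2 and 61.98 CPM in PP HET and 62.3 and 60.9 CPM in PP KO libraries, at 47.6 and 43.3 CPM in CD25- PP iHET and 41.1 and 49.2 CPM in CD25- PP iKO libraries, and at 47.1, 61.5 and 57.3 CPM in colonic iHET and 47.8, 54.6 and 63.3 CPM in colonic iKO libraries. Control and deleted libraries overlapped each time. The log2 fold changes were -0.068, -0.018 and -0.0071, with intervals of -0.30 to 0.16, -0.40 to 0.37 and -0.31 to 0.30. Of its 7505 exon bases, 278 are shared with 4930579G24Rik on the opposite strand.

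The second question was whether the members differ between the colon and the Peyer's patch, and whether the loss of JunB differs between them. Colonic and CD25- PP Tregs of the inducible line were compared in a fit of their 10 libraries, which holds the shared spread of the 4 groups. The organs also differ in the sort gate (CD25- in the PP only) and in the digestion of the tissue (Dispase in the colon only), so organ, gate and digestion cannot be told apart. Whether same-numbered CD25- PP and colonic libraries are from the same mouse is not given in the sources used here, and the fit treated them as separate. Sex was not a term of this fit. None of the 10 members passed an FDR of 0.05 in iHET or in iKO Tregs, while 1201 of 18626 genes (6.45%) passed in iHET and 758 (4.07%) in iKO Tregs. An unadjusted p under 0.05 was reached by 0 of 10 members in iHET and by 1 of 10, Acaa2, in iKO Tregs. Over all genes the shares were higher, at 22.3% in iHET and 20.9% in iKO Tregs. DESeq2 called 0 members in both.

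In iHET Tregs the log2 fold changes of colon against CD25- PP ran from -0.40 for Cpt2 to 0.28 for Etfdh, with a median of -0.034 beside -0.0086 for all genes. Their libraries were apart for 3 of 10 members, which was the case for 38.7% of all genes. Acadvl was higher in all colonic iHET libraries, with a difference of 0.19 ± 0.181 (SE, adjusted p = 0.6002) on the log2 scale. Cpt2, at -0.40 ± 0.275 (SE, adjusted p = 0.441), and Acaa2, at -0.24 ± 0.177 (SE, adjusted p = 0.467), were lower in all of them. In iKO Tregs the log2 fold changes ran from -0.32 for Hadhb to 0.55 for Cpt2, with a median of 0.19 beside 0.014 for all genes, and 2 of 10 members were apart, where 43.9% of all genes were. These were the subunits Hadha, at -0.23 ± 0.136 (SE, adjusted p = 0.377), and Hadhb, at -0.32 ± 0.201 (SE, adjusted p = 0.398) on the log2 scale, both lower in the colon. Acaa2 had a log2 fold change of 0.47 ± 0.1798 (SE, adjusted p = 0.171) in iKO Tregs. The 95% intervals of 9 of 10 members in iHET and of 8 of 10 in iKO Tregs lay within 2-fold. This held for 8638 and 8716 of all 18626 genes.

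The test of the difference itself, the interaction of organ and genotype, called 0 of 10 members, 0 of all 18626 genes (0%) in edgeR's quasi-likelihood test and 2 genes in DESeq2, with 622 genes at an unadjusted p under 0.05. The members with the largest values were Cpt2 and Acaa2, which were also the 2 members with an unadjusted p under 0.05. For Cpt2 the change by genotype was higher in the colon by 0.95 on the log2 scale (standard error 0.394, interval 0.072 to 1.83, adjusted p = 0.9999), and for Acaa2 by 0.71 (standard error 0.251, interval 0.15 to 1.27, adjusted p = 0.9999). Without colonic iKO library 3 these were 0.62 and 0.61. The other 8 members lay between -0.19 (Acadl) and 0.38 (Slc25a20).

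**Figure D4:**
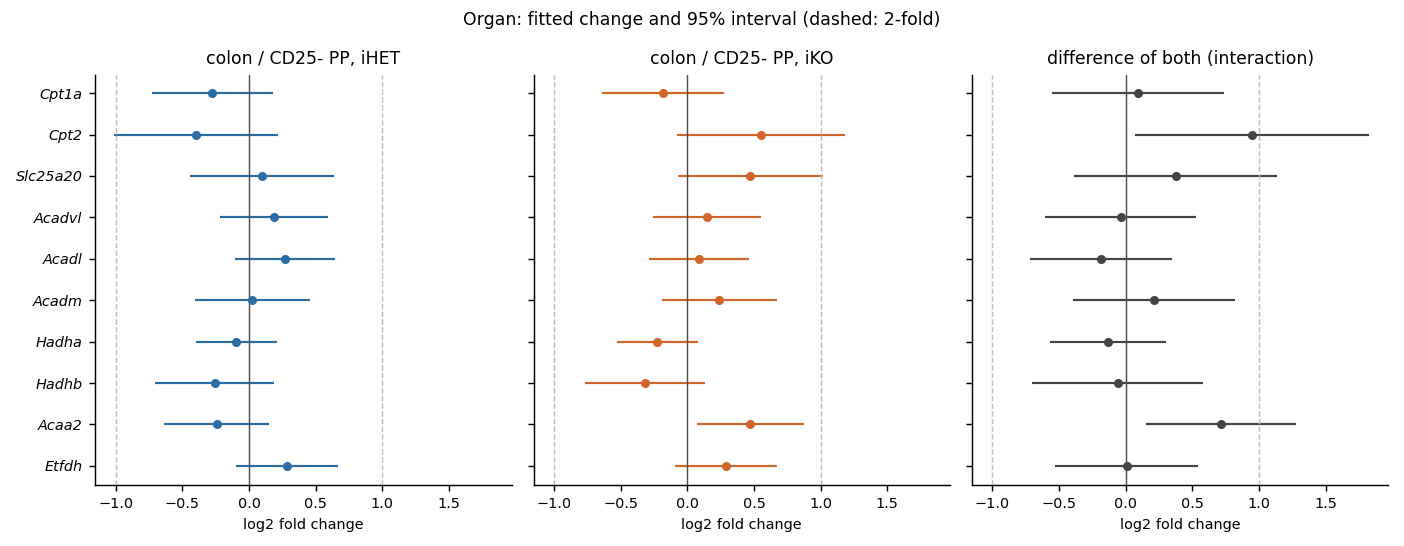
Fitted log2 fold change of colonic against CD25- PP Tregs (horizontal axis) of each member in iHET (left) and iKO (middle) Tregs, and the difference of both (right), with 95% intervals and dashed lines at 2-fold. The intervals that leave out 0 before adjustment are those of Acaa2 in iKO Tregs (0.47) and of the differences of Cpt2 (0.95) and Acaa2 (0.71).

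The other genes of the pathway came from 6 lists of 69 genes in all, namely other enzymes of mitochondrial beta-oxidation, genes of fatty acid uptake, activation and carnitine, genes that control the route, peroxisomal beta-oxidation, ketone bodies and PPAR targets, and other mitochondrial genes. None of the 57, 63 and 62 genes tested passed the FDR in PP, CD25- PP and colonic Tregs by genotype, and 8, 5 and 2 had an unadjusted p under 0.05. Over all genes 3.35%, 0% and 0.00613% passed the FDR, and 14%, 3.62% and 3.85% had an unadjusted p under 0.05. The 14 other enzymes of mitochondrial beta-oxidation had a median log2 fold change of -0.021 in PP and -0.024 in CD25- PP Tregs. In colonic Tregs it was 0.27, with 13 of 14 above 0, beside 8291 of 16313 genes and a median of 0.0047 over all genes. Without colonic iKO library 3, which by the block takes iHET library 3 out of the contrast too, the median of these 14 genes was 0.098, with 10 of 14 above 0. The genes of fatty acid uptake, activation and carnitine had a median of -0.32 in PP Tregs, with 2 of 11 above 0 beside 6192 of 12224 genes. In CD25- PP and colonic Tregs their medians were 0.036 and 0.077, with 7 of 12 above 0 in each. In the PP KO libraries 17 of 21 epithelial markers tested fell, and their part in the lower median was not tested. The 10 other mitochondrial genes, of the citric acid cycle, respiratory chain, import and mitochondrial DNA, had medians of -0.034, 0.087 and 0.048 in PP, CD25- PP and colonic Tregs.

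Between organs, 1 of 66 genes of these lists passed in iHET and 3 of 66 in iKO Tregs, where 6.45% and 4.07% of all genes did, shares close to or above those of the lists. Pparg, a nuclear receptor of fatty acids, was at 4.85, 15.03 and 11.6 CPM in colonic iHET and 0.548 and 1.31 CPM in CD25- PP iHET libraries, and rose in the colon with a log2 fold change of 3.45 ± 0.871 (SE, adjusted p = 0.0438). In iKO Tregs it was at 4.11, 14.9 and 25.9 CPM in the colon and 0.424 and 1.198 CPM in the PP, and rose by 4.17 ± 0.903 (SE, adjusted p = 0.0346). Acacb, whose product malonyl-CoA inhibits Cpt1 at the mitochondrion, passed in iKO Tregs, with 3.80, 5.46 and 7.82 CPM in the colon against 1.06 and 1.85 CPM in the PP and a log2 fold change of 1.95 ± 0.472 (SE, adjusted p = 0.0493). Its log2 fold change in iHET Tregs was 1.42 ± 0.457 (SE, adjusted p = 0.0964). Acad9, an acyl-CoA dehydrogenase that also helps to assemble complex I, fell in colonic iKO Tregs, with 42.1, 35.6 and 38.7 CPM against 54.3 and 60.3 CPM in the PP and a log2 fold change of -0.56 ± 0.128 (SE, adjusted p = 0.0419), and its log2 fold change in iHET Tregs was -0.40 ± 0.128 (SE, adjusted p = 0.0989). Of its exon bases, 559 are shared with Gm43079 on the same strand. Leaving out each of the 5 libraries compared kept the call of Pparg in 1 of 5 fits in iHET (adjusted p = 0.0296 to 0.204) and in 1 of 5 in iKO Tregs (adjusted p = 0.0171 to 0.182), and those of Acacb (adjusted p = 0.0506 to 0.227) and Acad9 (adjusted p = 0.0575 to 0.278) in 0 of 5. The log2 fold changes in these fits stayed at 2.97 to 4.18 and 3.51 to 5.04 for Pparg in iHET and iKO Tregs, at 1.60 to 2.39 for Acacb and at -0.64 to -0.49 for Acad9. The markers of myeloid cells were higher in the colon too, summing to between 112 and 333 CPM in the colonic and between 59.6 and 107 CPM in the CD25- PP libraries. Of the myeloid markers 3 of 10 tested rose in the colonic iHET and 2 of 10 in the colonic iKO Tregs. Of the 22 epithelial markers 6 and 3 passed the FDR as lower in the colon and 0 as higher. Their log2 fold changes were above 0 for 10 of 22 in iHET and for 15 of 22 in iKO Tregs. Their part in these results was not tested.

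A library that stood apart bears on all colonic values. The 10 members together summed to between 540 and 593 CPM in 9 of the 10 libraries of the inducible line and to 707 CPM in colonic iKO library 3, which was the highest of these libraries for Cpt2, Slc25a20, Acadvl, Acadm, Acaa2 and Etfdh. The same library had the highest sum of epithelial markers, 2289 CPM against 241 to 1230 CPM in the other colonic libraries. These markers were led by Krt19 (662 CPM) and Krt8 (496 CPM). Of the enterocyte markers, Fabp1 and Apoa1 were at 0 counts, Apoa4 at 2, Sis at 18 and Apob at 63. Others were higher, with Fabp2 at 950, Lct at 443, Slc5a1 at 394, Alpi at 269 and Mttp at 214 counts. The part of the epithelial transcripts in the level of the members was not tested. In PP Tregs, where the members summed to 681 and 669 CPM in HET and to 691 and 647 CPM in KO libraries, the epithelial markers were at 375 and 221 CPM in HET and at 81.2 and 70.9 CPM in KO libraries. The B and plasma cell markers were at 2474 and 2167 CPM in HET and at 1832 and 2225 CPM in KO libraries. Leaving out each library in turn called 0 members in each of the 6 comparisons.

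**Figure D5:**
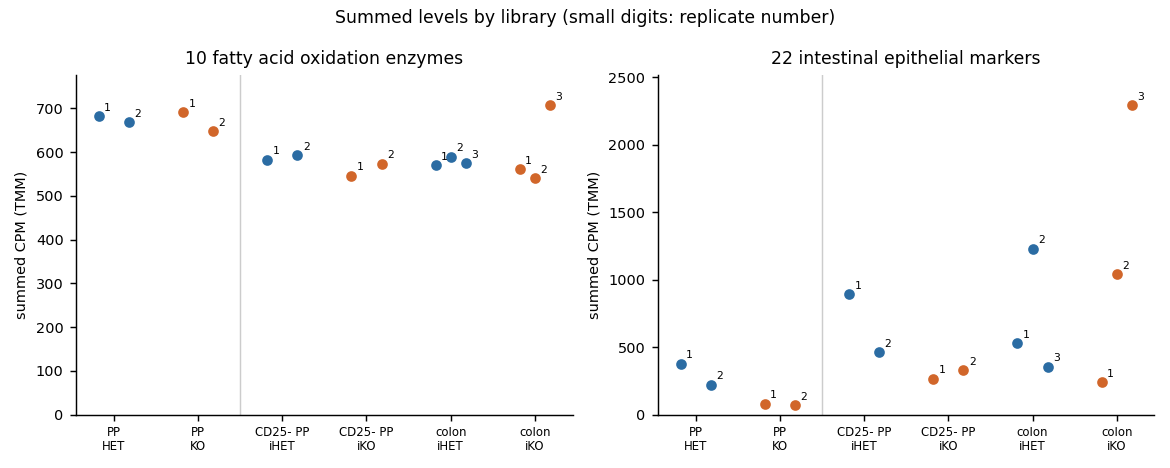
Summed CPM (vertical axes from 0) of the 10 members (left) and of 22 markers of intestinal epithelium (right) in each of the 14 libraries, with the replicate number beside each point. Colonic iKO library 3 is the highest library of the inducible line in both panels (707 and 2289 CPM), and the other libraries of that line sum to between 540 and 593 CPM for the members.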

How the data were processed

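RNA-seq libraries of sorted Tregs had been made with the SMARTer v4 kit and sequenced as 50 bp single-end reads (Foxp3YFPcre line) or as paired-end reads treated as single-end (inducible line). Reads were trimmed with Trim Galore and aligned to GRCm38 with STAR without multimapped reads. They were counted per GENCODE gene with featureCounts at its defaults, so without regard to strand and without reads that overlap several genes. Raw counts were deposited by the authors in a table per line. Ensembl IDs were matched to symbols, exon lengths and positions of GENCODE M21 (55394 of 55487 and 53706 of 53801 IDs), where the study states a later release.

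Counts were tested over all genes with edgeR 4.0.16 (quasi-likelihood F test, TMM, genes kept at 1 CPM or more in a number of libraries no lower than the size of the smallest group, prior count 1, Benjamini-Hochberg FDR of 0.05) in R 4.3.3. PP and CD25- PP Tregs were fitted alone (2 against 2), colonic Tregs alone with the replicate number as a block (3 against 3), since the study used cage there with 1 iHET and 1 iKO animal per cage, although no source used here ties the number to the cage, and organ and interaction in a fit of the 10 inducible libraries. The members, the lists and the tests were chosen with earlier results of these data known, and no p was adjusted over the members alone. The rule for named genes took all members and, of the other lists, genes past the FDR by genotype or interaction and up to 3 per list by organ. Alternatives were DESeq2 1.42.0, edgeR's exact and likelihood ratio tests, DESeq2 size factors, no filter, the block, other sets of libraries and each library left out. Scripts were tested on simulated counts. Libraries held 26274861 to 35508709 counts, and for the PP libraries no source used here states whether each holds 1 animal (the colonic groups had 3 animals each), so p-values measure the spread between libraries. Intervals are 95% intervals of the fit, and floors cover counting error only. Figures were drawn with matplotlib 3.10.9.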

Additional observations from a re-analysis of the deposited data

How the results depend on the processing

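None of the 10 members passed the FDR in any of 65 alternative fits of the 6 comparisons, 34 of which left out a library, and the lowest adjusted p was 0.0904, for Cpt1a in PP Tregs without KO replicate 1. The number of genes called over the whole table moved far more. Without the filter it went from 409 to 1305 in PP, from 0 to 232 in CD25- PP and from 1 to 24 in colonic Tregs, from 1201 to 2848 and from 758 to 2348 by organ in iHET and iKO Tregs and from 0 to 282 for the interaction. DESeq2 called 2504 and 2233 genes by organ, and a fit of the 5 libraries compared 430 and 1267. With a library left out the counts ran from 36 to 390 in PP, 2 to 77 in CD25- PP and 0 to 5 in colonic Tregs, 143 to 1700 and 79 to 495 by organ and stayed at 0 for the interaction. Of 650 fold changes of members, 586 kept their direction and 64 did not, the largest of which was 0.227 in size. Apart from left-out libraries, 6 reversed. Without the filter these were Slc25a20 in colonic Tregs (-0.0058) and the interaction of Etfdh (-0.0060), which was also -0.016 with DESeq2 and -0.016 with its size factors. The cause was not tested.

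For each library the deviations of all genes tested from the group mean were taken, and those of same-numbered libraries were correlated. The correlation was 0.159 in PP and 0.073 in CD25- PP Tregs, 0.16, 0.294 and -0.0211 in the colon and 0.0028 and 0.0636 between organs. In groups of 2 libraries the deviations mirror each other, so both numbers give the same value. By their deviations 4 of 6 colonic libraries correlated best with their own number, so the numbers were not shown to pair the libraries by cage or mouse. In the inducible line the number does follow sex, as library 1 of each group was male and the others female. The fits without the block left sex out. The replicate block called 0 members in each comparison, 1015 genes in PP and 0 in CD25- PP Tregs, 900 and 430 genes by organ in iHET and iKO Tregs and 0 for the interaction. With the block Cpt1a in PP Tregs was at -0.27 (adjusted p = 0.0959), and between organs in iHET Tregs Slc25a20 (-0.095) and Acadm (-0.043) reversed. Without the block 1 gene was called in colonic Tregs.

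Leaving out a library reversed 58 fold changes, among them that of Cpt2 in colonic Tregs (0.30 with all libraries). In PP Tregs the ranges were -0.16 to 0.10 (Cpt2), -0.073 to 0.079 (Slc25a20), -0.029 to 0.13 (Acadvl), -0.083 to 0.11 (Acadm) and -0.073 to 0.081 (Hadha). In CD25- PP Tregs they were -0.080 to 0.099 (Acadvl), -0.038 to 0.22 (Acadl), -0.12 to 0.20 (Acadm), -0.032 to 0.13 (Hadha), -0.022 to 0.041 (Hadhb) and -0.15 to 0.10 (Etfdh). In the colonic fit the block takes the same-numbered library of the other genotype out of the contrast as well. The colonic ranges were -0.35 to 0.23 (Cpt1a), -0.079 to 0.66 (Cpt2), -0.092 to 0.19 (Slc25a20), -0.15 to 0.067 (Acadvl), -0.20 to 0.056 (Acadl), -0.14 to 0.047 (Hadha), -0.26 to 0.20 (Hadhb) and -0.076 to 0.073 (Etfdh). By organ they were -0.046 to 0.21 (Slc25a20) and -0.13 to 0.19 (Acadm) in iHET and -0.053 to 0.25 (Acadvl) and -0.041 to 0.22 (Acadl) in iKO Tregs, and for the interaction -0.063 to 0.30 (Cpt1a), -0.24 to 0.072 (Acadvl), -0.26 to 0.069 (Hadhb) and -0.12 to 0.15 (Etfdh). The list medians without colonic iKO replicate 3, and so without iHET replicate 3 in the contrast, were chosen after seeing the data. They were -0.079 for the members (2 of 10 above 0) and 0.098 for the other enzymes of mitochondrial beta-oxidation (10 of 14), beside 0.00032 for all genes. Of the 5 other alternatives for each of Pparg, Acacb and Acad9 between organs, also chosen after seeing the data, 5 and 5 kept the call of Pparg in iHET and iKO Tregs, 2 that of Acacb and 3 that of Acad9. With 2 or 3 libraries a group the 95% intervals still allow changes below 1.5-fold in PP Tregs and, for 9 of 10 members, below 2-fold in CD25- PP and in colonic Tregs.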
